A study of Mus musculus with 4 samples.

Results

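A set of 10 genes of the epidermal growth factor (EGF) receptor family was followed, chosen by symbol: the receptors *Egfr*, *Erbb2* and *Erbb3*, the ligands *Areg*, *Ereg*, *Hbegf*, *Tgfa* and *Btc*, and the inhibitors *Errfi1* and *Lrig1*. All 10 were among the 16015 genes listed for the series. EGF-like ligands are made as membrane-bound precursors that are cut free by proteases, bind receptors of the ErbB family and bring these receptors together in pairs, which switches on the RAS-ERK and PI3K cascades. In the intestine this signalling drives the proliferation and survival of crypt cells and is known for its part in epithelial repair. Cells hold it back with proteins that block the receptor kinase or send the receptor for degradation.

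RNA of colonic epithelial cells was sequenced from 2 control and 2 *Bmal1* cKO mice to ask how loss of the clock gene *Bmal1* in the epithelium changes the colon in colitis. The control mice, labelled WT, carried *Bmal1* fl/fl without Cre, and the *Bmal1* cKO mice were *Villin-CreERT2;Bmal1* fl/fl, in which the villin promoter drives a tamoxifen-induced Cre in the intestinal epithelium and tamoxifen was injected for 5 days. All were C57BL/6 mice of 2 to 4 months that drank 3% dextran sulfate sodium (DSS), which injures the colonic epithelium, for 5 days and water for 2 days, and were sampled on day 7. Whether the control mice also received tamoxifen was not given in the sources used here.

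The 4 libraries held 10312791 to 14156639 reads on listed genes. Values are given as normalized counts, that is, reads scaled by a size factor for each library. *Arntl*, the gene that encodes BMAL1, had normalized counts of 358 and 342 in WT and of 341 and 289 in the *Bmal1* cKO-labelled libraries (log2 fold change -0.16, SE 0.14, limma adjusted p = 0.389). The count over the whole gene therefore did not tell the groups apart, reads of single exons cannot be seen in it, and every direction given here rests on the labels. Markers of other cells moved with the groups: the summed normalized counts of 17 leukocyte genes were 13585 and 21037 in WT and 1354 and 1519 in the *Bmal1* cKO-labelled libraries. Those of 12 fibroblast and smooth muscle genes were 17427, 3846, 524 and 593 (WT 1, WT 2, cKO 1, cKO 2), and those of 6 endothelial genes were 1972, 486, 76.1 and 98.7. Those of 12 epithelial genes, at 163788, 194276, 150524 and 158898, showed the labelled tissue in every library. In such bulk samples fewer cells of a type and less RNA per cell cannot be told apart. Fold changes of all genes also ran with the GC content of their transcripts (Spearman rho -0.61 across genes, which are not independent replicates): the median log2 fold change went from 1.13 in the class of lowest GC content to -1.35 in the highest. Fold changes and calls of the members are therefore also given after the trend with GC content and exon length was taken out of each library by loess, called the corrected value. That of *Arntl* was -0.46 (SE 0.14, adjusted p = 0.0566).

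Of the 10 members, the transcript of the receptor *Erbb3* rose, those of the ligand *Areg* and the inhibitor *Errfi1* fell, and 7 passed the test in neither direction. The test was limma on log2(normalized count + 1), two-sided, with p-values adjusted over 13983 genes and a threshold of 0.05. The share of all tested genes called by this test was 27.7% for lower and 29% for higher, so 2 lower and 1 higher of 10 members were no more than the background. The median log2 fold change of the members was -0.04, and that of all tested genes was -0.04. In 7 of the 10 members the values of the groups did not overlap, 4 of them higher and 3 lower in the *Bmal1* cKO-labelled libraries, where 40.3% of all tested genes were higher and 41.7% lower without overlap. An exact permutation test of a single gene cannot go below p = 0.333 with 2 libraries against 2. After correction, 4 members were called lower (*Egfr*, *Areg*, *Btc* and *Errfi1*) and 3 higher (*Erbb2*, *Erbb3* and *Lrig1*), against 18% and 16.9% of all tested genes. The calls of *Erbb3*, *Areg* and *Errfi1* were thus made with the same sign by both.

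**Figure D1:**
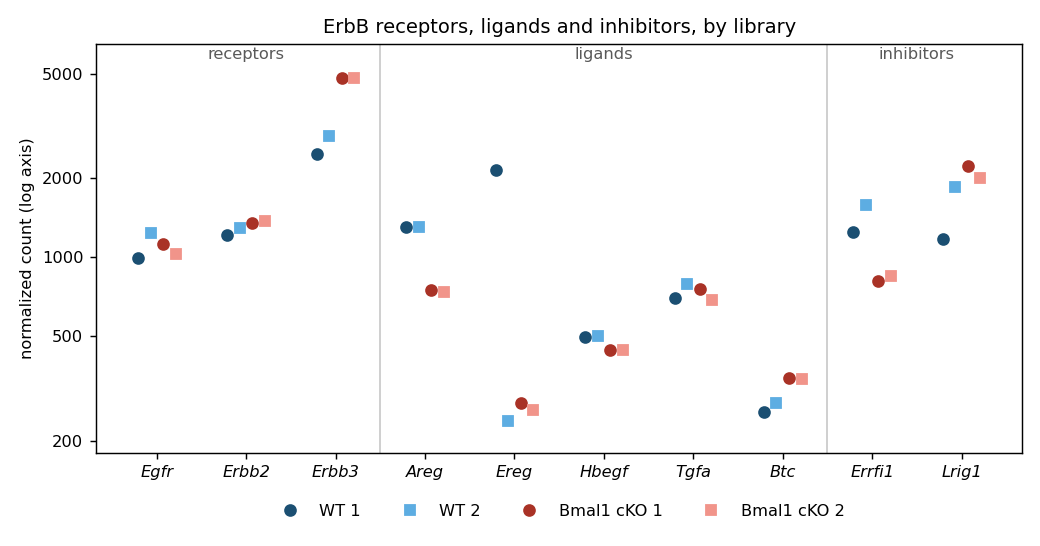
Normalized counts of the 10 members (log axis) in each library, with circles for replicate 1 and squares for replicate 2, blue for WT and red for the *Bmal1* cKO-labelled libraries. The red points of *Erbb3*, 4833 and 4801, lie above both blue points, those of *Areg* and *Errfi1* lie below, and *Ereg* has 1 point apart from the others, WT 1 at 2142.

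Among the receptors, *Erbb3* stood apart. It encodes a receptor whose own kinase has little activity and which signals by pairing with other ErbB receptors, mainly to PI3K. *Erbb3* (chr10:128567523-128589652, minus strand, GRCm38) had normalized counts of 2465 and 2890 in WT and of 4833 and 4801 in the *Bmal1* cKO-labelled libraries. Both of the latter were higher than both controls, and they differed from each other by less than the controls did. The mean was 1.80-fold higher, a log2 fold change of 0.85 (SE 0.11, limma adjusted p = 0.00218). The corrected value was 0.94 (SE 0.11, adjusted p = 0.00528), and with any 1 library left out the log2 fold change stayed between 0.74 and 0.97, with adjusted p from 0.0136 to 0.0333.

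*Erbb2* (chr11:98412470-98437716, plus strand), which encodes the receptor that binds no known ligand and serves as the preferred partner of the others, had normalized counts of 1218, 1294, 1352 and 1380 (WT 1, WT 2, cKO 1, cKO 2). The groups did not overlap, but the log2 fold change of 0.12 (SE 0.09) did not pass the test (limma adjusted p = 0.289). *Egfr* (chr11:16752203-16918158, plus strand), which encodes the receptor of all 5 ligands studied here, had normalized counts of 992, 1242, 1124 and 1030 in the same order. The *Bmal1* cKO-labelled libraries lay between the controls, and the log2 fold change was -0.04 (SE 0.14, adjusted p = 0.794). These genes lie at different GC contents, 57.3% for *Erbb2* and 44.4% for *Egfr*, where the medians of all genes were -0.82 and 0.57. The corrected values were 1.05 for *Erbb2* (SE 0.11, adjusted p = 0.00418) and -0.75 for *Egfr* (SE 0.14, adjusted p = 0.0138). The epithelial markers had a median GC content of 55.1% and a median log2 fold change of -0.39, which was 0.16 after correction. Scaling to these markers used uncorrected values and moved the median of all genes by 0.46. *Erbb2* was then at 0.59 (adjusted p = 0.0148) and *Egfr* at 0.42 (adjusted p = 0.0777). The calls of these 2 transcripts therefore depended on the processing, whereas *Erbb3*, at a GC content of 51.2% where the median of all genes was -0.06, had nearly the same value after the correction.

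Among the ligands, *Areg* fell. It encodes amphiregulin, a ligand of EGFR. *Areg* (chr5:91139599-91148432, plus strand) had normalized counts of 1306 and 1304 in WT and of 751 and 735 in the *Bmal1* cKO-labelled libraries. The groups were far apart and the libraries within each were nearly equal. The log2 fold change was -0.81 (SE 0.09, limma adjusted p = 0.00136), the mean of the *Bmal1* cKO-labelled libraries being 0.569 of that in WT. The corrected value was -0.83 (SE 0.09, adjusted p = 0.00509). With any 1 library left out the log2 fold change was between -0.83 and -0.80. With scaling to the epithelial markers, on uncorrected values, *Areg* was at -0.35 (adjusted p = 0.152), which ended the call. How much of that scaling came from the trend with GC content was not tested. The part of the other cells, whose marker sums moved with the groups, in the fall of *Areg* was not tested.

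*Ereg*, a neighbour of *Areg*, gave no call. It encodes epiregulin, a ligand of EGFR and ERBB4, and lies on chromosome 5 (91074622 to 91093646, plus strand) 46.0 kb from *Areg* with 0 protein-coding genes between them. Its normalized counts were 2142 and 238 in WT and 279 and 261 in the *Bmal1* cKO-labelled libraries. WT 1 alone was high, the other 3 libraries were alike, and the groups overlapped. The log2 fold change of -1.40 had an SE of 0.97 (limma adjusted p = 0.258), and it was 0.18 without WT 1 (adjusted p = 0.464) and -2.98 without WT 2 (adjusted p = 0.0131), so 1 library decided its direction. The corrected value was -2.53 (SE 0.95, adjusted p = 0.0904). WT 1 also held the highest summed counts of fibroblast and smooth muscle genes (17427) and of endothelial genes (1972), whereas the leukocyte sum was higher in WT 2 (21037 against 13585). The part of these cells in the *Ereg* count was not tested. *Ereg* shares 141 exon bases with the antisense gene *Gm19610*, and whether the counting used strand was not given in the sources used here.

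The other 3 ligands passed the test in neither direction. *Btc*, which encodes betacellulin and is the next protein-coding gene after *Areg* on chromosome 5 (91357261 to 91402994, minus strand), had normalized counts of 256, 279, 348 and 343 (WT 1, WT 2, cKO 1, cKO 2). The *Bmal1* cKO-labelled libraries were the higher ones, with a log2 fold change of 0.37 (SE 0.13, limma adjusted p = 0.0599). *Btc* has the lowest GC content of the members, 37.7%, and the median of its GC class was 1.13. Its corrected value was -0.87 (SE 0.14, adjusted p = 0.0106), so the direction turned, whereas with scaling to the epithelial markers *Btc* was called higher (0.83, adjusted p = 0.00730). *Hbegf*, which encodes heparin-binding EGF-like growth factor, had normalized counts of 496, 499, 441 and 445. The groups did not overlap, the difference was small (log2 fold change -0.17, SE 0.11, adjusted p = 0.230), and the corrected value was -0.03 (adjusted p = 0.849). With scaling to library totals, which moved the median of all genes by -0.22, *Hbegf* was called lower (-0.39, adjusted p = 0.0283). With scaling to the epithelial markers *Hbegf* was at 0.30 (adjusted p = 0.275). *Tgfa* (chr6:86195223-86275719, plus strand), which encodes transforming growth factor alpha, had overlapping counts of 696, 792, 758 and 688. Its log2 fold change was -0.04 (SE 0.12, adjusted p = 0.784), and the corrected value was 0.0070 (adjusted p = 0.968). Under scaling to the epithelial markers *Tgfa* was at 0.42 (adjusted p = 0.0911). *Tgfa* shares 118 exon bases with *Gm43917* on the opposite strand.

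Of the inhibitors, *Errfi1* fell. It encodes MIG6, which binds the EGFR kinase domain and is itself induced by EGFR signalling. *Errfi1* (chr4:150853919-150868892, plus strand) had normalized counts of 1252 and 1576 in WT and of 812 and 850 in the *Bmal1* cKO-labelled libraries. Both of the latter lay below both controls, at a log2 fold change of -0.76 (SE 0.14, limma adjusted p = 0.00638). The corrected value was -1.09 (SE 0.13, adjusted p = 0.00528). The call was lost without cKO 1 (-0.72, adjusted p = 0.0617) and without cKO 2 (-0.79, adjusted p = 0.0539), where the remaining library of that group was assumed to vary like the other group, and with scaling to the epithelial markers (-0.29, adjusted p = 0.211).

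*Lrig1* (chr6:94604529-94700158, minus strand) encodes a transmembrane protein that promotes the degradation of ErbB receptors and marks intestinal stem cells. Its normalized counts were 1174 and 1853 in WT and 2218 and 1998 in the *Bmal1* cKO-labelled libraries. The latter were higher than both controls, but the controls were far apart, and the log2 fold change of 0.51 (SE 0.22) did not pass the test (limma adjusted p = 0.0984). Without WT 1 it was 0.18 (adjusted p = 0.273) and without WT 2 it was 0.84 (adjusted p = 0.0190), so its size depended on which control was used. The corrected value was 1.15 (SE 0.23, adjusted p = 0.0174), and with scaling to the epithelial markers it was 0.98 (adjusted p = 2.87e-04). *Lrig1* shares 144 exon bases with *Slc25a26* on the opposite strand, on which 72 to 140 reads were counted per library.

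**Figure D2:**
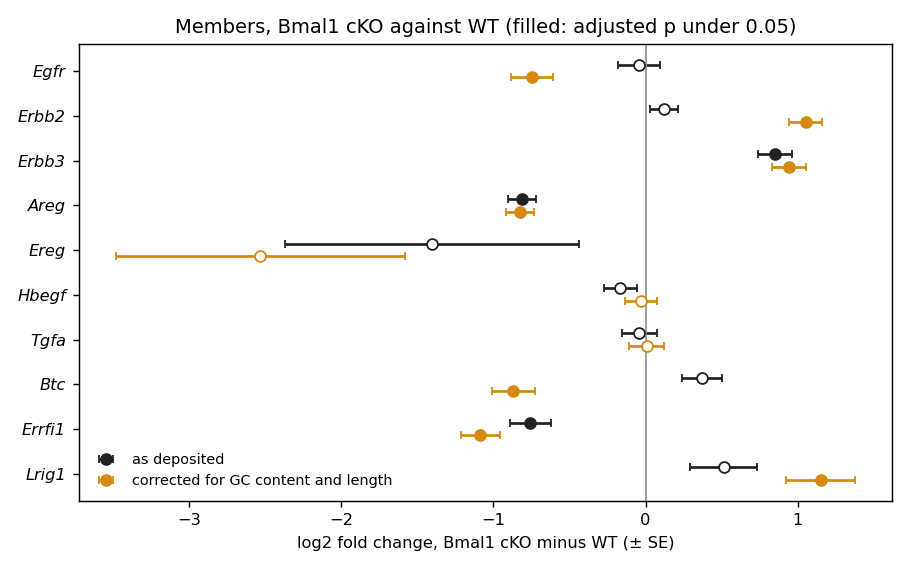
Log2 fold change of each member (*Bmal1* cKO minus WT, bars are SE of the limma fit), black as deposited and orange after correction for GC content and length, filled where the adjusted p was under 0.05. *Erbb3*, *Areg* and *Errfi1* are filled in both colours, and *Btc* lies at 0.37 in black and at -0.87 in orange.

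**Figure D3:**
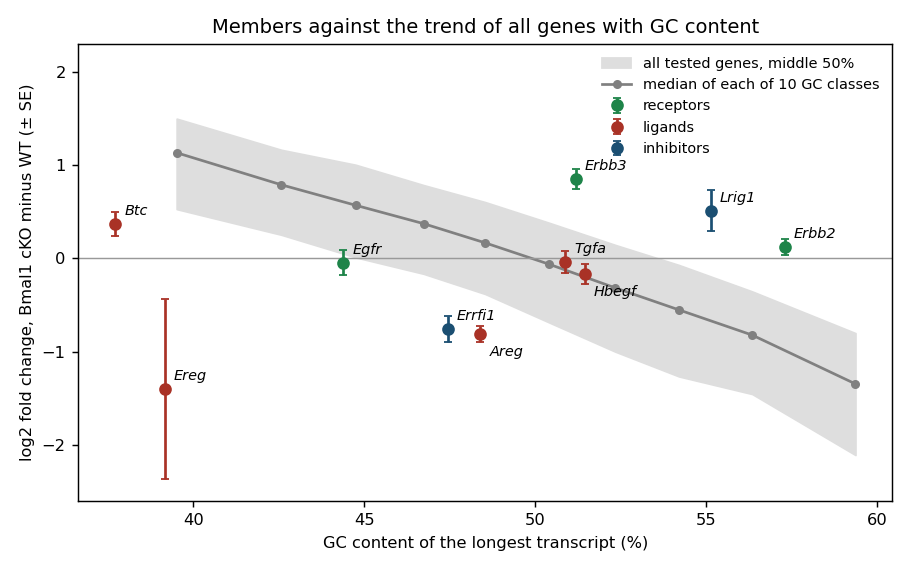
Log2 fold change of the members (points, bars are SE) against the GC content of the transcript in percent, with the median (line) and the middle 50% (grey) of all tested genes in 10 classes of GC content. *Egfr*, *Btc*, *Ereg*, *Areg* and *Errfi1* lie below the line and *Erbb2*, *Erbb3* and *Lrig1* above it, while *Tgfa* and *Hbegf* lie close to it.

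The promoters of the members were searched for what their sequences share, and those of *Areg* and *Errfi1* are shown since only they held a motif. Windows of the 250 bases before the annotated start were found in RefSeq (GRCm38.p6) for 7 of the 10 members, as 8 windows, since *Errfi1* has 2 starts. *Erbb3*, *Ereg* and *Hbegf* had no entry. Searched on both strands were 3 motifs: the E-box CACGTG, which BMAL1 and its partner CLOCK bind, the AP-1 site TGAGTCA, and the cAMP response element (CRE) TGACGTCA, bound by CREB and ATF factors. The CRE was found once in the *Areg* window (chr5:91139349-91139598, plus strand) and once in the downstream *Errfi1* window (chr4:150854820-150855069, plus strand), shown 5′ to 3′ with the CRE in capitals.
*Areg*: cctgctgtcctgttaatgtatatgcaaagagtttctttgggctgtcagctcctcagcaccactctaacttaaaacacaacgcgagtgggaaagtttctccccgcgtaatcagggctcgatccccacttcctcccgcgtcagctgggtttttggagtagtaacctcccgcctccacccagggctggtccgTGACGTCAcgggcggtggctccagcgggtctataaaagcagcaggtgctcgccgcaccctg
*Errfi1*: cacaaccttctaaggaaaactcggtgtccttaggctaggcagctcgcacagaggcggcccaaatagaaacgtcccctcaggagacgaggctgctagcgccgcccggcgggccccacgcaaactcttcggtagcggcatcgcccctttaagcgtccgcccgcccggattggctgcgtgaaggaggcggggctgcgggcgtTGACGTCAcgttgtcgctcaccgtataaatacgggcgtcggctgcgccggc
The windows of *Egfr* and *Btc*, also called lower after correction, held no CRE. The motif ended 53 bases before the start of *Areg* and 43 bases before that of *Errfi1*. Of 32851 windows of all genes, 1.55% held the CRE. None of the 8 member windows held the E-box CACGTG, which 6.02% of all windows held, or the AP-1 site, which 4.46% held. No other form of the E-box was searched. A match says only that these letters stand in the window, and no binding was measured in these files.

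Levels of different genes were compared as normalized counts divided by exon length, which takes out length but not the trend with GC content, so the levels, shares and ratios per kb are uncorrected values. Among the receptors *Erbb3* was the most abundant in every library, at 410 and 480 normalized counts per kb of exon in WT and 803 and 798 in the *Bmal1* cKO-labelled libraries. *Erbb2* followed at 234 and 248 against 259 and 265, and *Egfr* was lowest at 87.6 and 110 against 99.3 and 90.9. This order was the same in all 4 libraries, with gaps larger than the spread within each group. The ratio of *Erbb3* to *Egfr* per kb was 4.68 and 4.38 in WT and 8.09 and 8.78 in the *Bmal1* cKO-labelled libraries. *Erbb3* made up 56.0% and 57.3% of the summed receptor level in WT and 69.1% and 69.2% in the others. The gain of *Erbb3* over *Erbb2* did not hold after correction, where the log2 fold changes were 0.94 for *Erbb3* and 1.05 for *Erbb2*.

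*Areg* was the most abundant ligand per kb of exon in every library, at 1075 and 1074 in WT and 618 and 605 in the *Bmal1* cKO-labelled libraries. *Tgfa* (107, 122, 117 and 106; WT 1, WT 2, cKO 1, cKO 2) and *Hbegf* (103, 103, 91.3 and 92.0) followed, with *Tgfa* above *Hbegf* in every library, though in WT 1 and cKO 2 by less than the difference between the controls in *Tgfa*. *Btc* (56.6, 61.7, 76.9 and 76.0) and *Ereg* (519, 57.7, 67.5 and 63.2) were lowest, apart from *Ereg* in WT 1, and cannot be ordered in WT, where they overlapped. The ligands summed to 1860, 1418, 971 and 942, and without *Ereg* to 1341, 1361, 903 and 879. *Areg* thus carried most of the difference between the groups in the ligand sum without *Ereg*. Of the inhibitors, *Errfi1* was the higher of the pair in WT (350 and 440 against 210 and 332 for *Lrig1*) and *Lrig1* was the higher in the *Bmal1* cKO-labelled libraries (397 and 358 against 227 and 237).

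**Figure D4:**
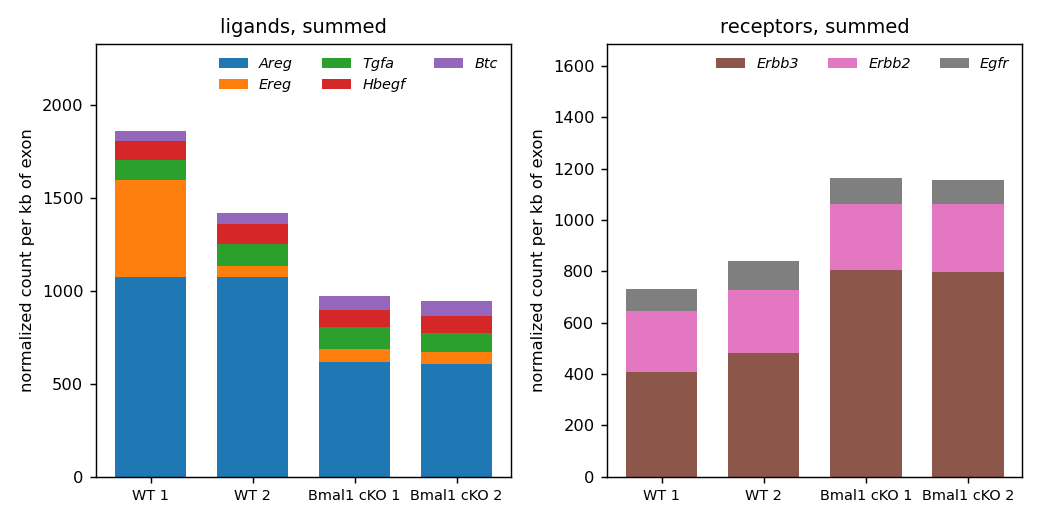
Normalized counts per kb of exon, stacked for the 5 ligands (left) and the 3 receptors (right) in each library, 1 bar a library. The ligand bars reach 1860 and 1418 in WT and 971 and 942 in the *Bmal1* cKO-labelled libraries, with *Ereg* large in WT 1 alone, and the receptor bars reach 731 and 838 and then 1162 and 1154, the difference being mostly *Erbb3*.

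The rest of the pathway was read from a list of 68 genes, of which 64 were tested. *Nrg2*, *Nrg3* and *Erbb4* were not analysed here, and *Epgn*, a ligand gene beside *Ereg*, was under the limit of a mean of 10 with normalized counts of 3.09 to 11.8. Of the 64, 24 were lower, 26 higher and 14 neither, with a median log2 fold change of -0.01. These were 37.5% and 40.6% of the 64, beside 27.7% and 29% of all tested genes. With the filter at a mean of at least 50, 28.6% of all genes were lower and 35.1% higher. After correction 12 of the 64 were lower and 15 higher, or 18.8% and 23.4% beside 18% and 16.9% of all tested genes. The counts of the lists below stand beside these same shares of all tested genes.

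Among the other ligands *Nrg1*, which encodes neuregulin 1, a ligand of ERBB3, fell. Its normalized counts were 395 and 94.0 in WT and 38.1 and 13.5 in the *Bmal1* cKO-labelled libraries, a log2 fold change of -3.03 (SE 0.81, limma adjusted p = 0.0242), corrected -3.90 (adjusted p = 0.0195). Its highest value was again in WT 1, the library with the most fibroblast, smooth muscle and endothelial marker counts, whose part was not tested. *Nrg1* and its receptor gene *Erbb3* thus differed between the groups in opposite directions.

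Of 8 genes of the proteases that release the ligands and their partners, 3 were lower and 4 higher (1 and 4 after correction). *Adam10* (log2 fold change 1.52, limma adjusted p = 5.46e-04) and *Adam17* (0.87, adjusted p = 0.00142), the main ligand-releasing proteases, rose. *Rhbdf1* (-1.81, adjusted p = 0.00177) and *Rhbdf2* (-1.34, adjusted p = 8.76e-04), which encode the iRhom proteins that carry ADAM17 to the cell surface, fell. After correction *Adam10* (0.63, adjusted p = 0.0127) and *Rhbdf1* (-0.95, adjusted p = 0.0198) kept their calls, and *Adam17* (0.22, adjusted p = 0.126) and *Rhbdf2* (-0.21, adjusted p = 0.200) did not.

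Of 21 genes of adaptors and kinase cascades, 6 were lower and 12 higher (3 and 5 after correction), with a median log2 fold change of 0.51 that was 0.02 after correction. *Mapk3*, which encodes ERK1 (-1.88, limma adjusted p = 5.33e-04), and *Hras* (-1.17, adjusted p = 8.90e-04) fell most, and *Pik3r1*, the regulatory subunit of PI3K (1.38, adjusted p = 5.33e-04), rose most. After correction *Mapk3* (-0.91, adjusted p = 0.00734), *Hras* (-0.51, adjusted p = 0.0255) and *Pik3r1* (0.73, adjusted p = 0.00528) kept their calls.

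Of 15 genes of receptor turnover, 4 were lower and 7 higher (1 and 5 after correction). *Socs4*, which encodes a protein that lowers EGFR levels (log2 fold change 1.69, limma adjusted p = 5.33e-04, corrected 0.46), and *Lrig2*, a relative of *Lrig1* (1.57, adjusted p = 8.90e-04, corrected 0.92), rose. *Hgs*, which encodes the endosomal sorting protein HRS (-1.37, adjusted p = 0.00168), and *Ptpn1*, a phosphatase of receptor kinases (-1.25, adjusted p = 0.00112), fell, and after correction *Ptpn1* (-0.55, adjusted p = 0.0189) kept its call and *Hgs* (-0.34, adjusted p = 0.137) did not.

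Of 17 feedback and target genes of ERK, 10 were lower (58.8%) and 3 higher (17.6%), beside 27.7% and 29% of all tested genes. In the GC class of their median GC content (54.4%), 42.5% of genes were lower and 5.72% higher. The median log2 fold change of the 17 was -0.88, where that class had a median of -0.55. After correction 6 were lower (35.3%) and 1 higher (5.88%), beside 18% and 16.9% of all tested genes. The corrected median was -0.55 against -0.03 for all tested genes. The immediate early genes *Egr1* and *Ier3* fell most among those named by rule. *Egr1* had normalized counts of 1021 and 958 in WT and of 131 and 211 in the *Bmal1* cKO-labelled libraries (log2 fold change -2.57, limma adjusted p = 8.76e-04, corrected -1.65, adjusted p = 0.0108). *Ier3* had 730 and 681 against 122 and 146 (-2.39, adjusted p = 5.33e-04, corrected -1.73, adjusted p = 0.00324). The groups did not overlap in either. *Spred1*, which encodes an inhibitor of RAS activation (1.31, adjusted p = 0.00163), and *Epha4*, an ephrin receptor gene (1.03, adjusted p = 0.00322), rose, and neither was called after correction (0.30, adjusted p = 0.159, and 0.44, adjusted p = 0.0761). Leukocytes and stromal cells also express *Egr1* and *Ier3*, and the part of the marker sums given above in these falls was not tested.

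**Figure D5:**
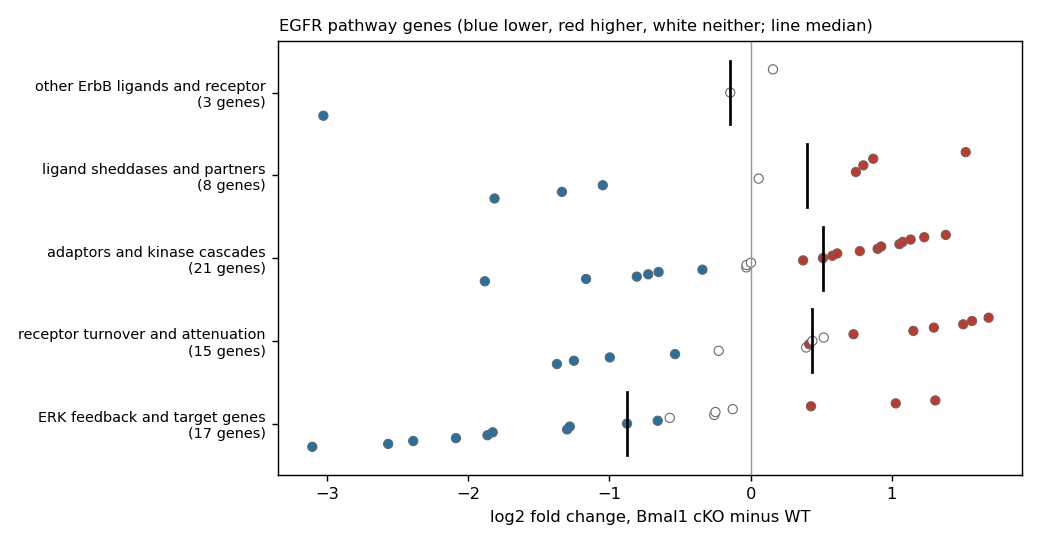
Log2 fold change (*Bmal1* cKO minus WT) of the 64 tested pathway genes, 1 point a gene, in 5 lists, blue where lower and red where higher at an adjusted p under 0.05, white where neither, with the median of each list as a line. The median of the ERK feedback and target genes lies at -0.88, and those of the sheddases, the cascades and receptor turnover lie between 0.40 and 0.51.

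The marker lists of the epithelium were mixed. Of 7 crypt base genes, 2 were lower and 2 higher (0 and 2 after correction), with sums of 1849, 2801, 2224 and 2491 (WT 1, WT 2, cKO 1, cKO 2). Of 7 genes of surface colonocytes, 3 were lower and 1 higher (2 and 2 after correction), with sums of 30273, 47084, 36044 and 42860. Both sums overlapped between the groups and run over genes that went both ways, and the part of these cells in the members' values was not tested. Of 12 general epithelial genes 4 were lower and 1 higher, and after correction 0 were lower and 5 higher. Of the genes of other cells, 14 of 16 tested leukocyte genes, 10 of 12 fibroblast and smooth muscle genes and 5 of 6 endothelial genes were lower (13, 9 and 4 after correction). Of all tested genes 27.7% were lower, and 18% after correction. No gene of these lists was at 0 in both *Bmal1* cKO-labelled libraries, and *Des*, which encodes desmin of muscle, had 0 and 1 reads there.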

How the data were processed

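The authors isolated colonic crypts with EDTA, scraping and a 70 µm strainer, sequenced paired reads of 150 bases, mapped them with STAR 2.2.1 onto the genome build GRCm38 and ran DESeq2 1.40.1, both versions being those of the methods. The counter, its use of strand and the annotation release were not given in the sources used here, and the labels and the methods name different library kits. The deposited values of each library are a signal, gene counts divided by a size factor. Whole reads were recovered from them (100% of values whole within 0.01). Columns with the authors' own fold changes, standard errors, test statistics and p-values were not used.

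Values were taken to log2(value + 1), filtered at a mean of at least 10 and tested by limma 3.58.1 (R 4.3.3) with a mean-variance trend, WT against *Bmal1* cKO, two-sided, with Benjamini-Hochberg adjustment over all tested genes. Fold changes on this scale understate those of low genes. The corrected values came from a loess fit (span 0.3) of each library's deviation on GC content and exon length, keeping each library's median deviation, for 13975 genes. The fits were tested on simulated counts with the same noise level for every gene, so that test does not give their error rate in these libraries. edgeR 4.0.16 and DESeq2 1.42.0 on the recovered reads, other scalings, filters, pseudocounts, a replicate block and left-out libraries were alternatives. Libraries of 1 group differed by more than sampling noise (chi-square per gene 46.7 in WT and 12.0 in the *Bmal1* cKO-labelled libraries). Each library is 1 mouse as far as the methods state. Reads were not counted by molecule.

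Gene positions came from an Ensembl-based annotation of GRCm38, to which 16003 of the 16015 genes were matched. Of each pathway list, the called genes with a mean of at least 50 and the 2 largest falls and rises were named, except 1 gene that is not reported here. The members and lists were chosen with earlier results of these data known.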

Additional observations from a re-analysis of the deposited data

How the results depend on the processing

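Over 14 alternative settings *Erbb3* was called higher in 14 (log2 fold change 0.63 to 1.32), *Areg* lower in 13 (-1.04 to -0.35) and *Errfi1* lower in 13 (-1.09 to -0.29). In the main fit 2 members were called lower and 1 higher, and 24 and 26 of the pathway genes. The pathway counts were 20 and 21 for limma without trend, beside 23.8% and 25.4% of all genes. At a threshold of 0.01 they were 16 and 21, beside 15.3% and 20.2%. With a mean of at least 50, 2 members were higher, *Btc* being added, beside 35.1% of the genes tested there. Scaling to library totals turned *Erbb2* to -0.10 and added *Hbegf* (-0.39) to make 3 members lower. It gave 28 pathway genes lower and 22 higher, beside 34.9% and 22.1% of all genes. It moved the median of all genes by -0.22. Scaling to the epithelial markers moved it by 0.46, left 0 members lower and 4 higher (*Erbb2*, *Erbb3*, *Btc* and *Lrig1*) beside 16.7% and 40.2% of all genes, with 15 pathway genes lower and 30 higher, and put *Arntl* at 0.31, *Egfr* at 0.42, *Hbegf* at 0.30 and *Tgfa* at 0.42. Of all calls 48.8% were lower, against 61.2% and 29.4% with these scalings. After the GC and length correction 4 members were lower and 3 higher, 12 pathway genes lower and 15 higher, *Tgfa* was at 0.0070 and *Btc* at -0.87, and 2522 and 2367 of all genes were lower and higher in place of 3871 and 4059. The correction without centring, chosen after seeing the data, moved the median by 0.30 (1635 of all genes lower and 4211 higher). It gave 3 members lower and 3 higher, and 7 pathway genes lower and 24 higher. *Hbegf* was then at 0.27, *Tgfa* at 0.30, *Btc* at -0.57 and *Areg* at -0.53. The corrected call of *Egfr* was lost (-0.45, adjusted p = 0.0762). The causes of these changes were not tested.

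The replicate numbers of the labels are shared by the groups, but same-numbered libraries did not deviate together (correlation -0.09). With the replicate block 2 members were lower and 1 higher, and 25 and 26 pathway genes, beside 27.1% and 27.9% of all genes. With the block and the GC correction together 4 and 3 members and 12 and 12 pathway genes were called, with *Tgfa* at 0.0070 and *Btc* at -0.87, and 2193 and 2017 of all genes. The block alone changed no call of a member.

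With 1 library left out, the members called lower ranged from 1 to 3 and higher from 1 to 2, and the pathway genes from 16 to 19 and from 21 to 25. *Ereg* ranged from -2.98 to 0.18, *Egfr* from -0.21 to 0.12 and *Tgfa* from -0.13 to 0.053. Of all genes, 2205 to 2852 were then lower and 2654 to 3154 higher. A threshold of 0.01 left 2136 of all genes lower and 2819 higher. With 2 libraries a group, a difference that misses the threshold is not shown to be absent.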
